A study of Mus musculus with 6 samples.

Results

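The 40 genes described here encode proteins that move cargo between the endoplasmic reticulum (ER) and the Golgi apparatus. They were the genes of the deposited count table whose symbol matched a named list of COPII and COPI coat subunits, p24 (Tmed) proteins, cargo receptors, SNAREs and Yipf proteins. All 40 were found among the 54532 genes of the table, and all 40 were among the 8513 genes that passed a filter on low counts and were tested. The rule matched symbols and used no measured value, but the list was chosen with earlier results of these data known.

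RNA was sequenced from leptotene and zygotene (L/Z) spermatocytes, the germ cells that begin meiotic prophase, sorted by flow cytometry after Hoechst staining from the testes of male mice at 12 days postpartum (dpp). The groups were Control (3 libraries, genotype labelled wild type, littermates per the study's methods) and Eef1g-cKO (3 libraries). In Eef1g-cKO males on a C57BL/6J background, floxed exons of Eef1g, which encodes the gamma subunit of translation elongation factor eEF1, are removed by Stra8-GFPCre, a recombinase active in male germ cells from spermatogonia onward. The question was how transcripts of sorted cells differ when this elongation factor subunit is lost, and neither the labels nor the methods say whether the 3 libraries of a group came from separate animals, so the p-values measure the spread between these libraries, which may be technical.

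Secretory proteins leave the ER in vesicles coated with COPII. The GTPase Sar1, loaded by Preb, recruits the Sec23-Sec24 inner coat, which selects cargo, and then the Sec13-Sec31 cage, at exit sites scaffolded by Sec16a. Escaped ER proteins and receptors return from the Golgi in vesicles coated with COPI, which is recruited by Arf GTPases, and SNAREs fuse both kinds of vesicle with their targets. In the germ line the pathway delivers membrane and glycoproteins, and in later male germ cells it feeds the acrosome.

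The 6 libraries held between 763133 and 2617648 reads assigned to genes, of which between 3839 and 16037 fell on the 40 genes, and the shallowest was Eef1g-cKO 3. Ribosomal RNA genes took 9.23% of reads in Eef1g-cKO 3 and from 2.73% to 6.29% in the other 5. Markers of L/Z spermatocytes (12 genes, 7 higher in Eef1g-cKO) summed to between 10040 and 11340 CPM (counts per 1000000 reads of the scaled library) in Control and between 21380 and 28250 CPM in Eef1g-cKO. Of this, Sycp1 made up 4726 to 5155 CPM in Control and 8400 to 12900 CPM in Eef1g-cKO, while Rec8 had 0 to 8 reads per library. Spermatogonial markers (10 genes, 4 lower) summed to 669.8 to 807.6 CPM in Control and 289.6 to 300.8 CPM in Eef1g-cKO. Pachytene and later markers (11 genes, 2 lower, Adam3 and Acrv1 at 0) summed to 187.9 to 209 CPM in Control and 104.6 to 148.9 CPM in Eef1g-cKO, of which Tbpl1 made up 109 to 124 CPM and 97.0 to 116 CPM, and the 10 others 78.6 to 85.0 CPM and 7.58 to 37.7 CPM. Peritubular and stromal markers (9 genes, 5 lower) summed to 213 to 354 CPM in Control and 22.7 to 79.3 CPM in Eef1g-cKO. Sertoli markers (10 genes, 2 lower) summed to 396 to 635 CPM in Control and 362 to 399 CPM in Eef1g-cKO, most of it Ctsl (265 to 343 CPM and 317 to 397 CPM), and the 9 others summed to 83.9 to 306 CPM and 1.52 to 45.2 CPM without overlap. Leydig markers (6 genes, Cyp17a1 and Hsd3b1 at 0) summed to 8.24 to 11.2 CPM in Control and 1.54 to 7.14 CPM in Eef1g-cKO, and those of blood and macrophages (7 genes, Cd68 and Csf1r at 0) to 6.59 to 76.4 CPM and 3.18 to 74.3 CPM. Except for the scarce Rec8, the cells thus carried the listed L/Z markers in both groups. The level of several marker lists moved with genotype, and the part of these shifts in the results for the transport genes was not tested. In bulk libraries, fewer cells of a type and less RNA per cell cannot be told apart.

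Eef1g itself, the deleted gene, stood at 218, 222 and 208 CPM in Control and at 137, 148 and 117 CPM in Eef1g-cKO. The groups did not overlap, and Eef1g fell by 0.68 on the log2 scale (SE 0.20, edgeR quasi-likelihood test, Benjamini-Hochberg adjusted p = 0.029). Counts per gene do not separate the deleted exons from the others. The call for Eef1g was lost without Control 1 (adjusted p = 0.110), Control 2 (0.124), Control 3 (0.0919) or Eef1g-cKO 1 (0.0840) in the same edgeR test, and in 7 of 15 other settings.

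Of the 40 transport genes, 8 rose in Eef1g-cKO at an adjusted p under 0.05 (20%, beside 7.80% of all tested genes) and 0 fell (beside 6.01%). The 8 were Yipf4, Yipf6, Copb1, Sec22b, Yipf5, Bet1, Sec23b and Tmed7, so they came from both coats, the p24 proteins, the SNAREs and the Yipf proteins. With an absolute log2 fold change over 1 required as well, 1 was higher (Yipf4, beside 3.42% of all tested genes) and 0 were lower (beside 4.96%). At an unadjusted p under 0.05, 12 were higher (beside 14.3%) and 0 were lower (beside 13.2%), the further 4 being Sec16a, Sar1a, Sec24b and Tmed10. DESeq2 called the same 8 genes higher (beside 8.63% of all tested genes) and 0 lower (beside 7.19%), and so did limma-voom (beside 10.4% and 7.69%). The median log2 fold change of the 40 was 0.15, beside −0.05 for all tested genes, with 24 positive and 16 negative values. Since the list was chosen with earlier results of these data known, these shares and medians only describe it. Under scaling by library totals alone the median of all tested genes moved by −0.17, that of the 40 was −0.01 with 20 positive values, and it stood 0.22 above that of all genes (0.20 with the scaling reported here).

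**Figure D1:**
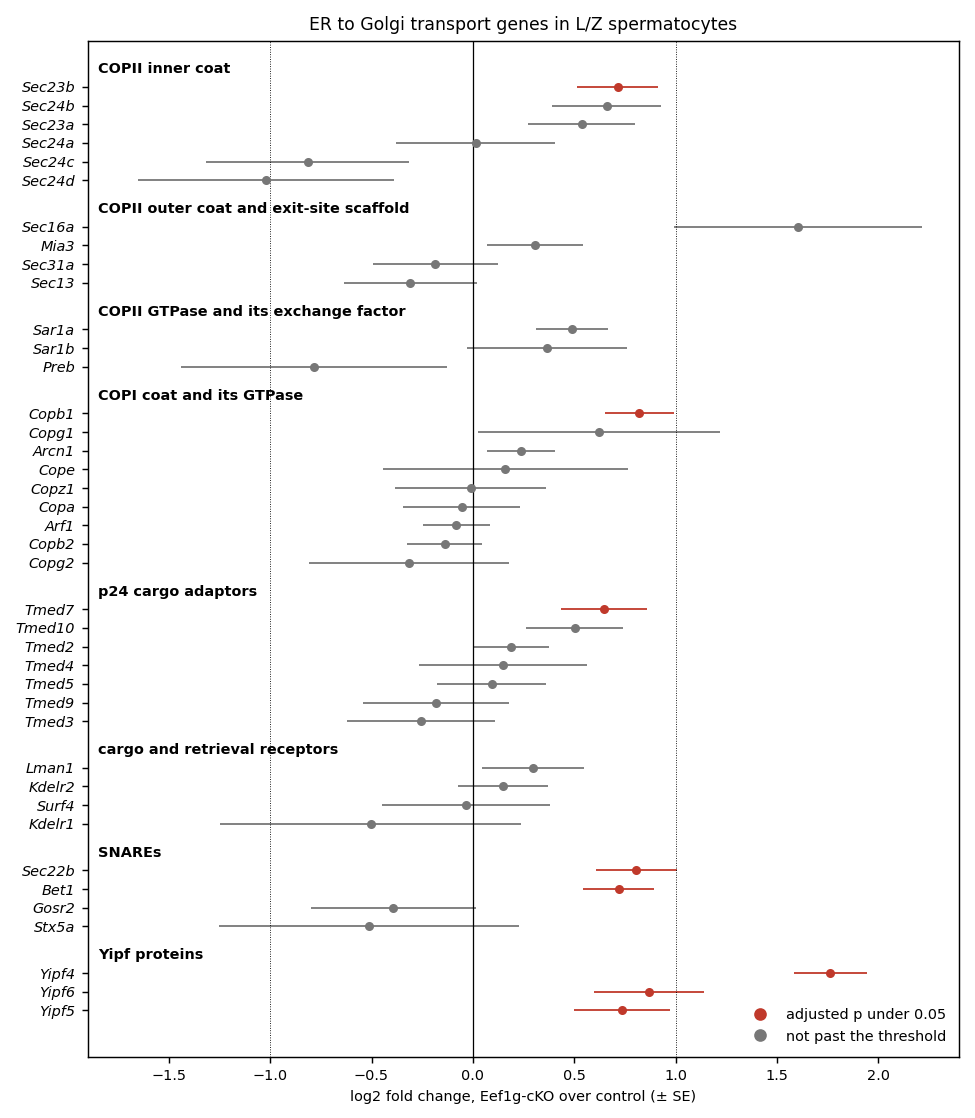
Log2 fold change (x axis, Eef1g-cKO over Control, points with bars of 1 SE, n = 3 libraries per group) of the 40 genes (y axis), grouped by role, with dotted lines at −1 and 1. The 8 genes at an adjusted p under 0.05 (red) all lie to the right of 0 and Yipf4 lies farthest right, at 1.76, while the other 32 (grey) run from −1.02 to 1.60.

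Added over all 40 genes, transport transcripts took 4195, 4311 and 4467 CPM in Control and 5798, 6172 and 5820 CPM in Eef1g-cKO. The 8 genes that rose made up 1312 of the difference of 1605 CPM between the group means, and Yipf4 alone made up 482.9. The 32 others summed to 2904 ± 43.6 CPM (SD, n = 3) in Control and 3198 ± 267 CPM (SD, n = 3) in Eef1g-cKO, a difference of 293.5 CPM. These sums are descriptions, since the 8 were separated by the test itself.

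Levels per kilobase of gene model (RPKM) spanned a wide range in Control, from 0.798 RPKM for Sec16a to 184 RPKM for Arf1, a ratio of 231. The median of the 40 was 17.2 RPKM beside 9.19 RPKM for all tested genes, and 27 of the 40 lay above the latter. Arf1 (166.4 to 205.4 RPKM in the Control libraries) lay above Yipf4 (84.5 to 113.9 RPKM) in every Control library, whereas Yipf4 and the next gene, Tmed2 (73.4 to 101.5 RPKM), overlapped. In Eef1g-cKO the order of the first pair was the other way round in every library, with Yipf4 at 290.5 to 374.3 RPKM and Arf1 at 161.9 to 182.8 RPKM. The scarce end held Sec16a, Copg1 (1.04 ± 0.602 RPKM, SD, n = 3), Stx5a (1.88 ± 0.912 RPKM) and Preb (2.38 ± 0.788 RPKM). The first 3 of these overlapped in Control, and Preb overlapped Stx5a.

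**Figure D2:**
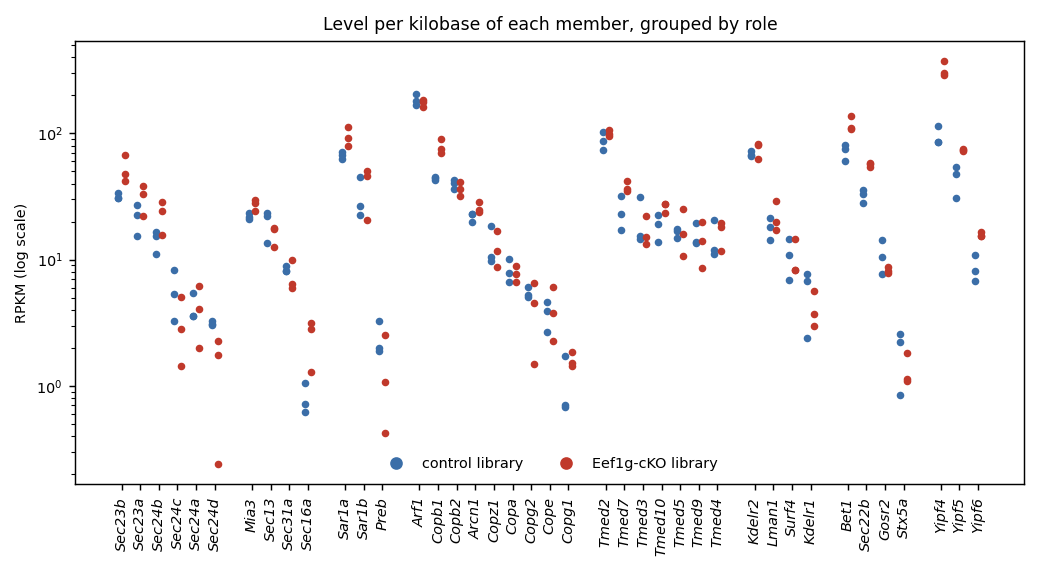
Level of each gene in each library (y axis, RPKM, log scale) by gene (x axis, grouped by role and ordered within a role by Control level), with Control libraries in blue and Eef1g-cKO libraries in red. Arf1 is highest among Control libraries (166.4 to 205.4 RPKM), Yipf4 is highest among Eef1g-cKO libraries (290.5 to 374.3 RPKM), and the lowest point is Sec24d in Eef1g-cKO 3 (0.240 RPKM, from 1 read).

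The 3 Yipf proteins, multi-pass membrane proteins of the ER and Golgi that are linked to Rab GTPases and Golgi structure, all rose. Yipf4, a Golgi protein that forms a complex with Yipf3 (ENSMUSG00000024072, GRCm38 chr17:74489493-74500277, plus strand), stood at 181, 180.3 and 243 CPM in Control and at 798, 620 and 635 CPM in Eef1g-cKO. Every Eef1g-cKO library was far above every Control library. The group means were 202 ± 35.8 and 684 ± 99.1 CPM (SD, n = 3 each), a 3.39-fold rise (log2 1.76, SE 0.18, edgeR adjusted p = 6.03e-06). Of the 8513 tested genes, 60 had a larger log2 fold change and 10 a smaller adjusted p. The sequence before the Yipf4 start is shown because Yipf4 had the largest change of the 40. It covers GRCm38.p6 chr17:74489243-74489492 on the plus strand, intergenic sequence directly 5′ of the annotated start as given by RefSeq, with each CCAAT, the letters bound by the factor NF-Y, in capitals.
Yipf4: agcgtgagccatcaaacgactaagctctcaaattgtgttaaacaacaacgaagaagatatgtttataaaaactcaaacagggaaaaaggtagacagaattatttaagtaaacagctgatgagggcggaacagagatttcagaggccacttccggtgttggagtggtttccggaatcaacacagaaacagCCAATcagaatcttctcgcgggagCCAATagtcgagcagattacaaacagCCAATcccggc
The 3 copies begin 61, 37 and 11 bases before the start. A window of 300 bases around the start held 3 or more copies, the number in Yipf4, on either strand in 6.75% of the 6474 tested genes with a promoter sequence. Of the 34 transport genes with such a sequence, 1 did so (Yipf4, 2.94%).

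Yipf5, which cycles between the ER and the early Golgi, was measured at 71.9, 126 and 112 CPM in Control and at 169, 176 and 171 CPM in Eef1g-cKO. The Eef1g-cKO libraries lay close together and above all Control libraries, of which Control 1 was lowest. Its rise was 1.66-fold (log2 0.74, SE 0.24, edgeR adjusted p = 0.0462). Yipf6, another Golgi membrane protein (ENSMUSG00000047694, chrX:98936316-98949017, plus strand), had 48.7, 77.3 and 57.7 CPM in Control and 117.5, 110.1 and 109 CPM in Eef1g-cKO, again without overlap. It rose 1.83-fold (log2 0.87, SE 0.27, edgeR adjusted p = 0.0392). When 1 library was left out, both calls held only without Eef1g-cKO 3. For Yipf5 the call was lost without Control 1 (edgeR adjusted p = 0.206), Control 2 (0.0584), Control 3 (0.114), Eef1g-cKO 1 (0.0884) or Eef1g-cKO 2 (0.0925), and for Yipf6 without the same libraries (0.159, 0.0511, 0.148, 0.0935 and 0.0672). The call for Yipf4 held without any single library.

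Of the 4 listed SNAREs, which form 1 fusion complex between the ER and the Golgi, Sec22b and Bet1 rose, and Stx5a and Gosr2 did not pass the test. Sec22b, the R-SNARE of ER-derived vesicles (ENSMUSG00000027879, chr3:97901190-97923276, plus strand), stood at 112, 141 and 131 CPM in Control and at 229, 228 and 214 CPM in Eef1g-cKO. It rose 1.75-fold without overlap (log2 0.80, SE 0.20, edgeR adjusted p = 0.0113). Bet1, another subunit of the complex (ENSMUSG00000032757, chr6:4076899-4086972, minus strand), was the most abundant SNARE per kilobase and had 226, 279 and 299 CPM in Control and 408, 507 and 406 CPM in Eef1g-cKO. The 1.65-fold rise of Bet1 (log2 0.72, SE 0.18, edgeR adjusted p = 0.0105) also came without overlap of the groups. Stx5a, the syntaxin of the complex, was scarce (7 to 25 reads per library) with a log2 fold change of −0.51 (SE 0.74), and Gosr2, its Qb partner, had −0.39 (SE 0.41). The Sec22b call was lost without Control 1 (edgeR adjusted p = 0.0657) or Control 3 (0.0520), and the Bet1 call without Control 1 (0.0706).

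**Figure D3:**
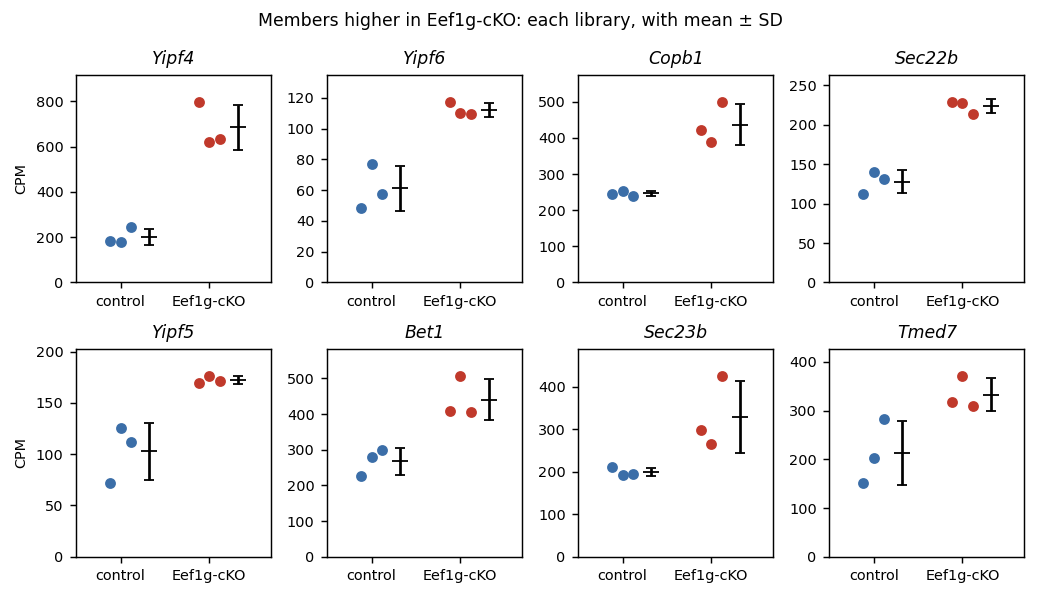
CPM (y axes, starting at 0) in each Control library (blue) and each Eef1g-cKO library (red) for the 8 genes that rose, with the mean and SD of each group in black (n = 3). In all 8 panels the lowest Eef1g-cKO library lies above the highest Control library, with the narrowest gap for Tmed7 (284 against 309 CPM) and the widest for Yipf4 (243 against 620 CPM).

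The inner COPII coat is a dimer of Sec23, which activates Sar1, and Sec24, which binds cargo. Of its 6 genes, 1 rose. Sec23b (ENSMUSG00000027429, chr2:144556229-144590749, plus strand), the most abundant of them per kilobase, had 211, 193 and 195 CPM in Control and 298, 265 and 426 CPM in Eef1g-cKO. It was 1.64-fold higher (log2 0.71, SE 0.20, edgeR adjusted p = 0.0209), with Eef1g-cKO 3 well above the other 2 libraries of its group. The call was lost without Control 1 (edgeR adjusted p = 0.0596), Control 2 (0.0839) or Control 3 (0.0825). Its paralog Sec23a had 74.2 to 131 CPM in Control and 106 to 186 CPM in Eef1g-cKO (log2 0.54, SE 0.26, edgeR adjusted p = 0.196), and passed the test only without Eef1g-cKO 3 (0.0375). Per kilobase, Sec23a was 40.2 ± 7.93% of the Sec23 pair in Control and 37.8 ± 12.0% in Eef1g-cKO (SD, n = 3), so the balance of the paralogs differed by less than its spread, and its direction turned with the library left out.

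None of the 4 Sec24 genes passed the test, and their log2 fold changes pointed both ways, from 0.66 (SE 0.27, edgeR adjusted p = 0.115) for Sec24b through 0.01 (SE 0.39) for Sec24a and −0.82 (SE 0.50) for Sec24c to −1.02 (SE 0.63, adjusted p = 0.316) for Sec24d. Sec24b and Sec24a form 1 subfamily with like cargo preferences and Sec24c and Sec24d the other. Sec24d was counted with 26, 40 and 35 reads in Control and with 14, 37 and 1 in Eef1g-cKO, and was the only transport gene whose Eef1g-cKO libraries all lay below all Control libraries in CPM (beside 18.1% of all tested genes). As shares of all Sec24 reads per kilobase, Sec24b took 47.8%, 62.1% and 48.3% in Control and 59.0%, 68.3% and 88.7% in Eef1g-cKO. The groups overlapped for Sec24b, whereas the share of Sec24d was 9.53%, 12.2% and 13.2% in Control and 6.61%, 6.38% and 0.740% in Eef1g-cKO, without overlap. Eef1g-cKO 3 held only 135 Sec24 reads, and without it the Sec24b difference was 10.96 percentage points in place of 19.3. Sec24b itself passed the test without Eef1g-cKO 1 (edgeR adjusted p = 0.0499).

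Among the outer coat and exit-site genes, 0 of 4 passed the edgeR test and 1 had an unadjusted p under 0.05. Mia3, the TANGO1 protein that packs bulky cargo such as collagen, was the most abundant per kilobase, with 93.7, 103 and 96.7 CPM in Control and 107, 125 and 132 CPM in Eef1g-cKO. These did not overlap, and Mia3 had log2 0.31 (SE 0.24) and missed the edgeR threshold (adjusted p = 0.429). Sec16a, the exit-site scaffold, came next to Yipf4 in fold change among the 40 (log2 1.60, SE 0.61, edgeR adjusted p = 0.0914) on few reads, 13, 11 and 12 in Control and 15, 75 and 17 in Eef1g-cKO. The cage subunits Sec13 and Sec31a had log2 fold changes of −0.31 (SE 0.33) and −0.19 (SE 0.31) with overlapping groups.

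The GTPase Sar1a, whose insertion into the membrane starts COPII assembly, was at 253, 236 and 268 CPM in Control and at 296, 419 and 344 CPM in Eef1g-cKO. The groups did not overlap and the log2 fold change was 0.49 (SE 0.18, edgeR adjusted p = 0.0784). Sar1a passed the test without Eef1g-cKO 3 (log2 0.55, adjusted p = 0.0368). Sar1b (log2 0.37, SE 0.40) and the exchange factor Preb (−0.78, SE 0.66, 2 to 46 reads per library) overlapped between groups. Sar1a held 68.9 ± 7.58% of the Sar1 pair per kilobase in Control and 71.3 ± 9.52% in Eef1g-cKO (SD, n = 3), a difference smaller than its spread and of no fixed direction when libraries were left out.

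COPI is recruited to the membrane as a whole complex. Of its 8 listed coat genes and Arf1, 1 rose. Copb1, which encodes beta-COP (ENSMUSG00000030754, chr7:114215559-114254711, minus strand), stood at 246, 254 and 239.6 CPM in Control and at 421, 389 and 500.3 CPM in Eef1g-cKO. It rose 1.77-fold (log2 0.82, SE 0.17, edgeR adjusted p = 0.00324), and the call held without any single library. Copb2, the unrelated beta-prime subunit, was at nearly the same Control level per kilobase (39.9 ± 3.30 RPKM beside 44.1 ± 1.25 RPKM for Copb1, SD, n = 3). It had 256, 273 and 231 CPM in Control and 203, 229.8 and 259 CPM in Eef1g-cKO, with log2 −0.14 (SE 0.18, edgeR adjusted p = 0.676). The other coat genes Copa, Arcn1, Copz1, Cope, Copg1 and Copg2 had log2 fold changes from −0.32 (Copg2, SE 0.49) to 0.62 (Copg1, SE 0.60). Of these, Arcn1, which encodes delta-COP, showed no overlap (295.0 to 343 CPM in Control, 356 to 429 CPM in Eef1g-cKO) and had log2 0.24 (SE 0.17, edgeR adjusted p = 0.379). Arf1, the GTPase that recruits COPI and the most abundant gene of the list per kilobase in Control, had 348, 378 and 429 CPM in Control and 338, 382 and 371 CPM in Eef1g-cKO (log2 −0.08, SE 0.17). Copg1 took 15.8 ± 8.54% of the Copg pair per kilobase in Control and 32.3 ± 15.9% in Eef1g-cKO (SD, n = 3), with overlap and with only 16 reads on the pair in Eef1g-cKO 3.

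Of the 7 p24 proteins, small membrane proteins that link lumenal cargo such as GPI-anchored proteins to both coats, 1 rose. Tmed7 had 152, 203 and 284 CPM in Control and 318, 371 and 309 CPM in Eef1g-cKO, so that the highest Control library came near the lowest Eef1g-cKO library. It was 1.57-fold higher (log2 0.65, SE 0.21, edgeR adjusted p = 0.0478), and the call was lost without Control 1 (adjusted p = 0.223), Control 2 (0.158), Eef1g-cKO 1 (0.0835) or Eef1g-cKO 2 (0.124). Tmed2, the p24 protein with the highest level per kilobase, had 221, 186 and 257 CPM in Control and 241, 266 and 247 CPM in Eef1g-cKO (log2 0.19, SE 0.19). Its partner Tmed10 had 79.4 to 131 CPM in Control and 136 to 161 CPM in Eef1g-cKO, without overlap (log2 0.50, SE 0.24, edgeR adjusted p = 0.179). Tmed3, Tmed4, Tmed5 and Tmed9 overlapped between groups, with log2 fold changes from −0.25 to 0.15. Annotated exons of Tmed7 overlap those of Ticam2 on the same strand over 838 bases, where strand cannot separate reads, and Ticam2 was listed with 0 reads in all libraries. Exons of Tmed5 overlap those of Mtf2 (1729 reads over all libraries beside 1347 for Tmed5) on the other strand over 395 bases, and since the strand setting of the counting is not given in the sources used here, reads there cannot be told apart. Tmed7 was the only gene among the 8 that rose with such an overlap, while 10 further transport genes (Sec23a, Tmed10, Copa, Surf4, Gosr2, Copg2, Sec24c, Copg1, Preb and Stx5a) share exonic bases with genes of at most 70 reads.

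Of the cargo and retrieval receptors, 0 of 4 passed the edgeR test, also at an unadjusted p under 0.05. Kdelr2, which returns escaped ER chaperones bearing a KDEL signal, was the most abundant per kilobase, with 132, 124 and 121 CPM in Control and 148, 152 and 115 CPM in Eef1g-cKO (log2 0.15, SE 0.22). Kdelr1 was far scarcer, at 7.55 ± 3.78% of the pair per kilobase in Control and 5.35 ± 2.53% in Eef1g-cKO (SD, n = 3), with a log2 fold change of −0.51 (SE 0.74). The lectin receptor Lman1 (log2 0.30, SE 0.25) and the cargo receptor Surf4 (−0.04, SE 0.41) also overlapped between groups.

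In all, 13 of the 40 genes had every Eef1g-cKO library above every Control library in CPM (32.5%, beside 16.4% of all tested genes). They were the 8 that rose and 5 of the 32 others, namely Sec16a, Mia3, Sar1a, Arcn1 and Tmed10. The 8 had been called on the same libraries, so they add no separate support here. The 5 of the 32 cannot be set beside the 16.4%, because that share also counts genes that passed the test. The 32 genes that did not pass the test had 16 positive and 16 negative log2 fold changes, 16 of them within 0.3 of 0, and a miss of the threshold does not show that their levels did not differ.

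The 8 calls differed in how firmly they held, and all 8 log2 fold changes were positive in all 15 alternative settings and in all 6 fits that left out 1 library. Yipf4 passed in all 21 (log2 from 1.58 to 1.93, largest adjusted p 0.00021 by edgeR, DESeq2 or limma-voom). Copb1 passed in 14 of 15 settings, Sec22b in 13, Bet1 and Sec23b in 12, Yipf5 in 10, Tmed7 in 9 and Yipf6 in 8. Upper-quartile scaling left 4 of the 8 (Copb1, Sec22b, Bet1 and Yipf4, beside 5.44% of all tested genes higher and 7.51% lower), and library totals alone left 2 (Copb1 and Yipf4, beside 3.96% higher and 7.25% lower). Upper-quartile scaling moved the median of all tested genes by −0.12. Requiring at least 10 reads in every library took the calls of Sec23b, Tmed7, Yipf5 and Yipf6, and thinning all libraries to the smallest total those of Tmed7, Yipf5 and Yipf6. Without Eef1g-cKO 3, 10 of the 40 were higher (beside 8.57%) and 0 lower (beside 6.86%), Sec23a and Sar1a being the 2 gained.

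**Figure D4:**
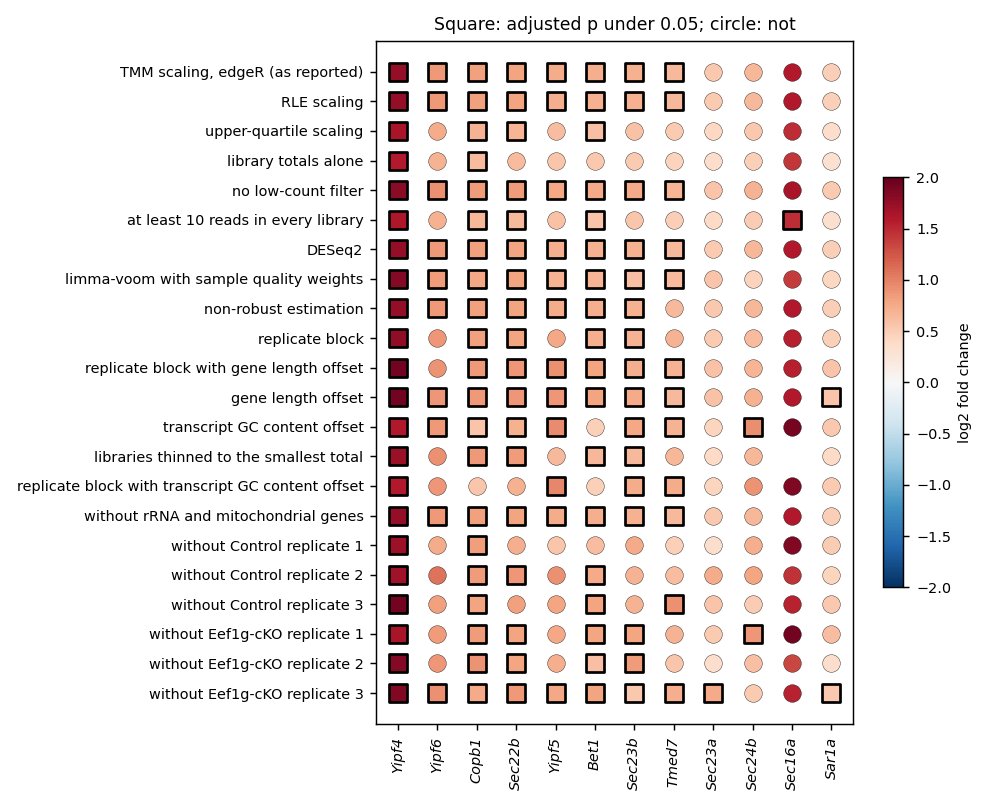
Log2 fold change (color scale, Eef1g-cKO over Control) of the 8 genes that rose and of 4 that passed in at least 1 other fit (x axis) in each fit (y axis), drawn as a square where the adjusted p was under 0.05 and as a circle where it was not (an empty place marks a gene that did not pass that fit's filter). Yipf4 is a square in every row, Copb1 in all but 1, and the fit without Eef1g-cKO replicate 3 has the most squares (10).

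Base composition moved with the fold changes of all genes. The median log2 fold change fell from 0.39 for tested genes with a mean transcript GC content under 40% to −0.43 for those over 55%. The 8 genes that rose had a median GC content of 45.9% (41.7% to 51.2%), the 32 others 49.8% and all tested genes 48.7%. Within the bins that held transport genes, their median lay above that of all genes in 40% to 43% GC (0.72 beside 0.25, 3 genes), 43% to 46% (0.37 beside 0.15, 7 genes), 46% to 49% (0.30 beside 0.00, 11 genes), 49% to 52% (−0.05 beside −0.15, 8 genes), 52% to 55% (−0.25 beside −0.31, 9 genes) and over 55% (0.06 beside −0.43, 2 genes). With GC content as an offset in edgeR, 8 genes were higher (beside 6.82% of all tested genes) and 0 lower (beside 4.35%), and of the 8, 7 were among those reported here. Bet1 then missed the threshold (log2 0.48, edgeR adjusted p = 0.0824) and Sec24b passed it (log2 0.93, adjusted p = 0.0337). The median gene length was 4779 bases for the 8 and 4586 for all tested genes. It was 5218 for all genes that rose and 3673 for all that fell. With gene length as an offset in edgeR, 9 of the 40 were higher (beside 9.27% of all tested genes), Sar1a being gained (log2 0.57, adjusted p = 0.0330).

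**Figure D5:**
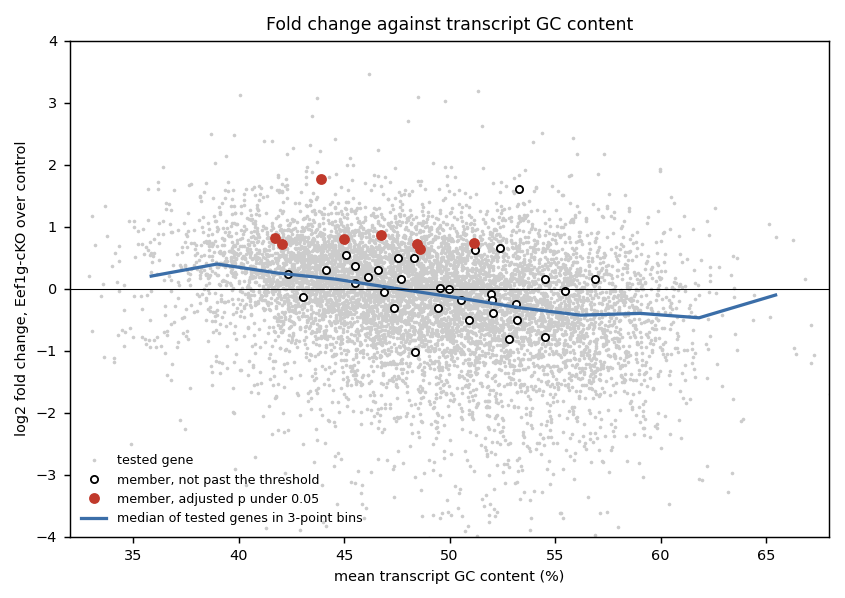
Log2 fold change (y axis, Eef1g-cKO over Control, drawn from −4 to 4, with 44 genes outside) against mean transcript GC content (x axis, %) for 8508 tested genes (grey), the 8 transport genes that rose (red) and the 32 others (open), with the median of all tested genes per GC bin as a blue line. The line falls with GC content, and all 8 red points lie above it, Yipf4 highest at 43.9% GC and 1.76. The x axis leaves out the ends of the GC range of tested genes (25.65% to 73.68%), and the 44 refers to the y axis only.

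The letters TGACGTG are the core of sites for ATF6 and XBP1, transcription factors of the unfolded protein response that are known to act on secretory genes. They were searched on both strands (CACGTCA on the other) in RefSeq promoters of 300 bases, 250 before and 50 after each annotated start in GRCm38.p6, which were at hand for 34 of the 40 genes. They occurred in 7 of the 34 (20.6%), beside 2.22% of all 27025 genes with a promoter and 3.78% of the 6474 tested ones. Of 6 genes that rose and had a promoter, 1 (Copb1) held them. The following stretches, 5′ to 3′ on the strand of the gene with the motif in capitals, are shown because Copb1 and Copb2, whose fold changes differed, both carry it close to the start. A match is a description of letters, not a bound site or a cause.
Copb1 chr7:114254690-114254718, minus strand: ccgcccccttcCACGTCAgccaaggactt
Copb2 chr9:98563714-98563742, plus strand: cccggaagttcCACGTCAgtgggttggcc
Mia3 chr1:183369634-183369662, minus strand: tgagcccttgcTGACGTGtcactcgcagc
Sec24d chr3:123267459-123267487, plus strand: gcccgggcgccTGACGTGgcactagcaac
Sec23a chr12:59011994-59012022, minus strand: ctcctccccttTGACGTGgcagaggcggc
Arf1 chr11:59228229-59228257, minus strand: gcggcaggcgcTGACGTGgctgccgtcag
Stx5a chr19:8741423-8741451, plus strand: ggcgcagcagcCACGTCAccgagttagga
Relative to the RefSeq start, the motif begins 27 bases before it in Copb1, 6 in Copb2, 26 in Sec24d and 86 in Mia3. It begins at base 7 after the start in Sec23a and at bases 11 and 40 in Stx5a. In Arf1 it lies 84 bases before the start or at base 22 after it, depending on the RefSeq start. The gene spans of the count table begin earlier for Copb1, Copb2 and Sec24d, and they include the motif. Log2 fold changes of these 7 genes ran from −1.02 (Sec24d) to 0.82 (Copb1). The genes for the factors themselves, Xbp1 (log2 −0.58, SE 0.40, edgeR adjusted p = 0.370) and Atf6 (0.17, SE 0.33), did not pass the test. Counts per gene give transcript levels and not the activity of these factors, which was not tested. CCAAT occurred in 16 of the 34 (47.1%, beside 44% of tested genes), and neither the longer ER stress element nor the amino acid response element was found in any of the 34 (0.137% and 1.08% of all genes).

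The wider early secretory pathway was followed through 81 further genes (other COPII and COPI factors, cargo receptors, tethers and Rabs, SNAREs, Yip proteins and regulators), of which 62 passed the filter. By the edgeR test 6 were higher (beside 7.80% of all tested genes) and 2 lower (beside 6.01%), with a median log2 fold change of −0.07. The share that rose was thus near the background. Lman2, a lectin of the early secretory pathway, was at 92.9, 54.1 and 77.5 CPM in Control and at 164, 125 and 215 CPM in Eef1g-cKO, a 2.23-fold rise (log2 1.16, SE 0.27, adjusted p = 0.00766). Tfg, which organizes exit sites, rose 1.75-fold (log2 0.80, SE 0.23, adjusted p = 0.0266), although its groups overlapped, with Control 3 at 213 CPM and Eef1g-cKO 3 at 205 CPM. The GTPase Arf4 (135 ± 19.8 and 223 ± 10.1 CPM, SD, n = 3, log2 0.73, adjusted p = 0.0216) and the tether subunit Trappc6b (110.1 ± 25.3 and 190 ± 31.9 CPM, log2 0.79, adjusted p = 0.0302) rose without overlap. The other 2 were Trappc11 (log2 0.95) and Gorasp2 (log2 1.32).

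In the other direction, Pdcd6, a calcium-binding partner of Sec31a at exit sites, fell from 127, 93.3 and 123 CPM in Control to 49.2, 35.4 and 44.0 CPM in Eef1g-cKO (log2 −1.43, SE 0.29, edgeR adjusted p = 0.00282), and its call held without any single library. Trappc1, a core subunit of the TRAPP tether, fell from 25.8 ± 8.81 to 4.01 ± 4.48 CPM (SD, n = 3, log2 −2.40, SE 0.72, adjusted p = 0.0319) and had 0 reads in Eef1g-cKO 3, where 3 reads would be 4.55 CPM. Of the other Yip proteins, Yipf3 (log2 −0.04, SE 0.76) and Yipf1 (log2 −1.40, SE 0.81, adjusted p = 0.280) were tested and did not pass. Fewer genes passed overall in most fits that left out 1 library. The count of wider genes that rose was 0 without Control 2 (beside 4.25% of all tested genes), 1 without Control 1 (4.08%), Control 3 (4.42%) or Eef1g-cKO 1 (5.23%), 4 without Eef1g-cKO 2 (6.81%) and 9 without Eef1g-cKO 3 (8.57%). The count of those that fell was 1 without Control 1 (beside 2.52%), Control 2 (2.64%), Control 3 (2.74%) or Eef1g-cKO 1 (4.42%), 2 without Eef1g-cKO 2 (6.38%) and 3 without Eef1g-cKO 3 (6.86%).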

How the data were processed

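RNA of sorted L/Z spermatocytes (3 Control and 3 Eef1g-cKO libraries) was amplified as full-length cDNA from polyadenylated transcripts and sequenced as 150 bp paired-end reads. According to the study's methods, the authors cleaned the reads (fastp), mapped them to GRCm38 (HISAT2 2.2.1) and assigned them to genes (featureCounts 2.0.6). What they deposited is a table of raw counts with 1 column per library and no scaling. Strand and multimapping settings of the counting are not given in the sources used here, and without molecular identifiers PCR copies count as reads, so limits from low counts cover counting error only.

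Counts were scaled by TMM and tested with edgeR 4.0.16 (robust quasi-likelihood, genotype as the only term, limma 3.58.1, R 4.3.3) after filterByExpr (minimum count 10, minimum total 15). P-values were 2-sided and adjusted by Benjamini-Hochberg over all 8513 genes. The standard error of a log2 fold change was its size over the square root of F. CPM used TMM-scaled totals, and RPKM divided CPM by the gene length in the file. GC content was the mean over GENCODE M21 transcripts. Alternatives comprised 3 other scalings, 2 filters, DESeq2 1.42.0, limma-voom with sample weights, non-robust estimation, a replicate block, length and GC offsets, thinning to 763133 reads, and leaving out each library. On simulated data, the procedure recovered 34% of 106 genes with a true absolute log2 fold change of 1. It recovered 80.9% of 94 genes with a true value of 2 and called 0.0252% of unchanged genes. The changed genes were not drawn from the lowest levels. The simulation changed no other genes, gave genes of like level the same spread and held no GC trend. Its rates need not hold for the real libraries.

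The transport genes and the gene and marker lists were chosen with earlier results of these data known. Named were all 40 genes, with values per library for those that passed the test, the most abundant of each role and Eef1g, and up to 4 wider genes in each direction with the largest counts. Trappc11, Gorasp2, Yipf1, Yipf3, Xbp1, Atf6, Copb2, Sec24d, Sec16a and the per-library shares of Sec24b and Sec24d were given beyond that rule, after their values were seen.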

Additional observations from a re-analysis of the deposited data

How the results depend on the processing

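No log2 fold change of the transport genes that rose changed sign, and 0 of the 40 fell in any fit. The count that rose (8, beside 7.80% of all tested genes) was 4 when libraries were scaled by upper quartile (5.44%), 2 when by their totals alone (3.96%), 5 with at least 10 reads in every library (8.42%, 33 of the 40 tested, Sec16a gained), 5 after thinning (6.62%, 36 tested) and 1 with the fold limit (3.42%). It was 2 to 10 without 1 library each, namely 2 without Control 1 (4.08%, so near the background), 4 without Control 2 (4.25%) or Control 3 (4.42%), 6 without Eef1g-cKO 1 (5.23%), 5 without Eef1g-cKO 2 (6.81%) and 10 without Eef1g-cKO 3 (8.57%). Replicate numbers did not pair the libraries (correlations of deviations −0.0371, 0.0192 and −0.0486 across genes, and not every library correlated best with its own number). With the replicate block the count was 5 (beside 5.83%), and 4 (5.41%) with the block and the GC offset, a combination chosen after seeing the data, as was leaving out rRNA and mitochondrial genes (8, beside 7.78%). In the wider list, the count higher (6) was 3, 1, 3 and 2 under the same first 4 settings, 3 with the block with or without the GC offset, and 0 to 9 without 1 library. The count lower (2) was 1 under the filter of 10 reads per library and in each fit with the block, and 1 to 3 without 1 library. The median log2 fold change of the 40 (0.15) was −0.008 with library totals alone and 0.13 to 0.29 without 1 library (0.29 without Eef1g-cKO 3). The causes of these shifts were not tested. Depth limited the scarcest genes, such as Sec24d with 1 read in Eef1g-cKO 3.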
